A study of Mus musculus with 12 samples.

Results

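The 6 mouse heart samples labelled as treated with carbon tetrachloride (CCl4), called hearts here, fell into a set of 3 with high extracellular matrix RNA, replicates 3, 5 and 6, and a set of 3 with matrix RNA close to that of Control hearts, replicates 1, 2 and 4. They are called matrix-high and matrix-low here, and they are 6 of the 12 hearts of the study, the other 6 being Control hearts. The sets were chosen by the matrix RNA of these same libraries, so every difference between them is a description with no test, and collagens and other matrix genes support nothing about them. Tests were made only among the 6 Control hearts and between the 2 labelled groups. The Control hearts are in neither set, though the matrix-low set was described by their range of matrix RNA.

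CCl4 is a solvent that liver enzymes turn into a reactive radical, and it is widely given to rodents to scar the liver. The labels gave the tissue as heart and the treatment as control or carbon tetrachloride. They gave no strain, age, sex, dose, route or duration, did not say what the Control mice received, which part of the heart was taken or whether each library came from its own animal. RNA was extracted with TRIzol and made into stranded mRNA libraries, per the labels' protocols, and the values are RPKM (read counts scaled to gene length and library size), as deposited.

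In the healthy heart, resident fibroblasts hold a sparse collagen network between the muscle cells. After injury or load they take up an activated state, in which they secrete fibrillar collagens, matricellular proteins such as periostin and thrombospondins, and the enzymes that fold and crosslink collagen. TGF-beta is the best known signal for that state: it is stored in the matrix bound to latent binding proteins and acts on cell surface receptors once released. Macrophages and stretched muscle cells are among its sources.

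The 4 genes that marked the sets gave the sets their names. Cilp, a cartilage intermediate layer protein that fibroblasts secrete, was at 86.1, 56.1 and 56.8 RPKM in matrix-high replicates 3, 5 and 6 and at 2.42, 8.24 and 6.53 RPKM in matrix-low replicates 1, 2 and 4. Col1a1, a chain of the main fibrillar collagen, was at 92.8, 37.5 and 45.8 RPKM against 7.53, 9.95 and 15.4 RPKM. All matrix-high hearts were above all matrix-low hearts for Col3a1 and Col8a1 as well, and above all 6 Control hearts for each of the 4 markers. Over 30 matrix genes, the mean log2(RPKM + 1), called the matrix score, was 5.45, 4.22 and 4.55 in the matrix-high hearts, 2.26, 2.57 and 3.13 in the matrix-low hearts, and 2.40 to 3.41 in the Control hearts. The hearts nearest the division were therefore CCl4 replicate 5 on the high side and CCl4 replicate 4 on the low side.

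**Figure D1:**
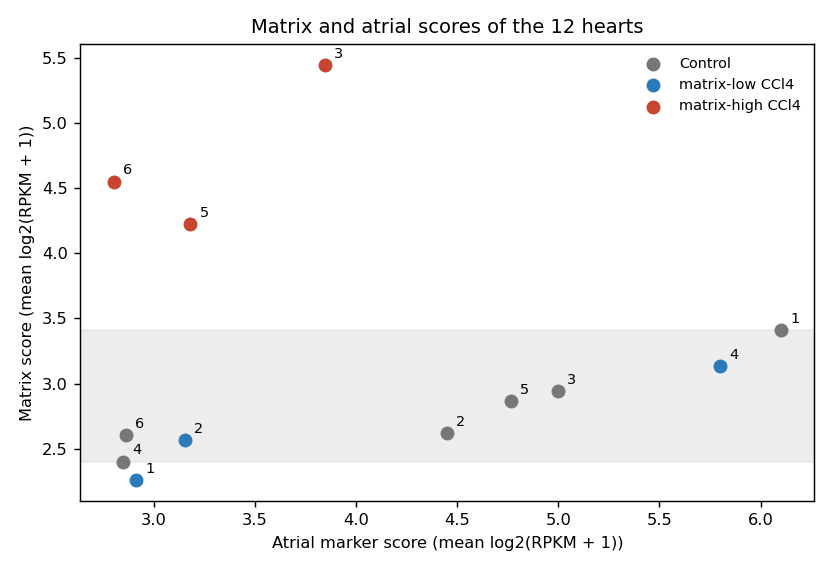
Matrix score (vertical axis) against the mean of 12 atrial markers (horizontal axis), both as mean log2(RPKM + 1), with 1 point per heart, its replicate number beside it and the Control range of the matrix score shaded. The matrix-high hearts lie above the Control range at atrial scores of 2.80 to 3.84, and the matrix-low hearts spread from 2.91 to 5.80 along the atrial axis.

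The libraries were of similar quality, with 4 features that touch the comparison. The relative depth, read from the steps between low values, was 26351942 to 63377287 reads, and 48103387 to 50955785 in the matrix-high set. CCl4 replicate 3 stood apart from replicates 5 and 6 by its higher matrix score and by most of the genes below. Values without it are given for part of the lists only. The share of reads from the mitochondrial genome was 34.1%, 36.4% and 31.6% in matrix-high replicates 3, 5 and 6 and 40.5%, 43.8% and 33.3% in matrix-low replicates 1, 2 and 4, with 29.5% to 37.9% in Control hearts. Atrial markers differed among hearts of each group, with Myl7, the atrial myosin light chain, at 307 RPKM in CCl4 replicate 4 and at 18.0 RPKM or less in the other matrix-low hearts. The female transcript Xist was absent from 1 heart of each set, replicate 5 in one and replicate 2 in the other, where the Y-linked Ddx3y was present, so both sets held 2 female hearts and 1 male heart. The part of mitochondrial and atrial RNA in the differences below was not tested. The heart muscle gene Myh6 was at 8991 to 17697 RPKM in the 12 libraries, and the liver gene Alb reached at most 0.187 RPKM.

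Of 14252 genes measured at 0.5 RPKM or more in at least 3 of the 6 CCl4 hearts, 34.8% had all 3 matrix-high hearts above all 3 matrix-low hearts and 1.56% had them all below. The balance between the directions moved with the scaling. The median difference of all genes, matrix-high minus matrix-low set medians on log2(RPKM + 1), was 0.21 as deposited and -0.0017 after median-of-ratios scaling, which by its construction sets the typical gene equal between libraries, and the split then became 12.7% above and 12% below. Scaling to the nuclear RNA alone gave 27.4% above and 4.02% below. A difference is therefore given below on both scales where the choice matters, and a gene or list close to 0.21 on the deposited scale moved no more than the typical gene. The sets are called apart for a gene when they did not overlap. Of the 14252 genes, 231 passed the filter through the matrix-high hearts alone and 9 through the matrix-low hearts alone, so these had to be apart.

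With set medians also at least 2-fold apart, 186 genes (1.31%) lay higher in the matrix-high hearts and 3 (0.021%) lay lower; after median-of-ratios scaling the counts were 103 and 11. Matrix lists (the score, proteases and inhibitors, and basement membrane) held 38 of the 186, and 148 belonged to none of them. All 3 matrix-high hearts exceeded every Control heart for 145 of the 186 genes as deposited, against 8.49% of all genes. This count is not independent of the choice. The 186 are high in matrix-high hearts by definition, and matrix-low hearts were chosen for matrix RNA in the Control range. Such counts below are descriptions too. All 3 matrix-low hearts fell below every Control heart for 12 of the 186 as deposited, against 12% of all genes. After median-of-ratios scaling, where the 186 were not counted in this way, the shares of all genes were 7.4% and 1.44%. For 7 of the 186 genes, as deposited, all matrix-high hearts were above and all matrix-low hearts below every Control heart. The share of all genes with both was not counted, on either scale. The 7 included Sparc, Fbn1 and Col15a1 of the matrix, the matrix remodelling protein gene Mxra7 and the actin binding gene Dbn1. The others were the WNT inhibitor gene Nkd2 and the membrane protein gene Emp1. CCl4 replicate 3 had the highest value for 180 of the 186 genes and replicate 5 the lowest value of its set for 170. Without replicate 3, 121 genes met the same criteria, and 120 of them were among the 186; without replicate 5 it was 387 genes and without replicate 6 it was 292, with 174 and 167 of the 186 among them.

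Markers of activated fibroblasts were apart in 15 of the 16 measured, all higher in the matrix-high hearts, against 34.8% of all genes. The median difference was 1.58 against 0.21 for all genes (1.31 after median-of-ratios scaling, 1.57 without replicate 3). The list overlaps the choice of the sets: 3 of the 16, among them Thbs4 and Comp, are members of the matrix score, and 2 passed the filter through the matrix-high hearts alone. Of the 12 that are in no matrix list, 11 were apart, with a median difference of 1.41. In 15 of the 16, all 3 matrix-high hearts also exceeded every Control heart, against 8.49% of all genes. Sfrp2, a secreted WNT modulator made by activated fibroblasts, was at 54.8, 18.9 and 28.9 RPKM in matrix-high replicates 3, 5 and 6, at 0.967, 2.38 and 3.76 RPKM in matrix-low replicates 1, 2 and 4, and at 0.917 to 4.84 RPKM in Control hearts. Matrix-low hearts were inside the Control range for this gene, and the ratio of set medians was 12.2. Cthrc1, a secreted collagen triple helix repeat protein known from scar-forming fibroblasts, was at 14.5, 3.76 and 5.73 RPKM against 0.0263, 0.460 and 0.533 RPKM, and Control hearts reached 0.734 RPKM at most. The small leucine-rich proteoglycan gene Aspn was at 84.3, 38.3 and 56.0 RPKM against 9.03, 13.3 and 12.6 RPKM. These 3 genes shared their order of hearts in the matrix-high set, replicate 3 above 6 above 5.

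Meox1, a homeobox transcription factor gene known as a switch of fibroblast activation, was at 65.0, 22.2 and 29.5 RPKM in the matrix-high hearts and at 13.6, 7.87 and 7.89 RPKM in the matrix-low hearts. The Control hearts were at 10.9 to 20.7 RPKM. All 3 matrix-high hearts were above and 2 of the 3 matrix-low hearts below every Control heart. Tnc, the matricellular protein tenascin C that appears in injured tissue, was low in all hearts, at 2.74, 1.14 and 1.43 RPKM against 0.245, 0.341 and 0.195 RPKM, and passed the filter through the matrix-high hearts alone. The exception in the list was Cdh11, an adhesion gene of activated fibroblasts, where matrix-low replicate 4, at 2.15 RPKM, exceeded matrix-high replicates 5 and 6. Meox1, Tnc and Cdh11 were picked after their values were seen.

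Markers of fibroblasts in general differed less. Of 14 measured, 9 were apart with the matrix-high hearts higher and 1 with them lower, against 34.8% and 1.56% of all genes. After median-of-ratios scaling 6 were higher and 2 lower, against 12.7% and 12%. The median difference was 0.52 (0.32 after median-of-ratios scaling). Dcn, the proteoglycan decorin, was at 191, 106 and 128 RPKM in the matrix-high hearts and 54.2, 60.5 and 104 RPKM in the matrix-low hearts, so replicates 5 and 4 nearly met. Control hearts spanned 42.9 to 123 RPKM for it. The progenitor-like fibroblast marker Pi16 was at 44.1, 22.1 and 27.7 RPKM against 7.23, 11.9 and 15.1 RPKM. In whole tissue, more fibroblasts and more RNA per fibroblast cannot be told apart.

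**Figure D2:**
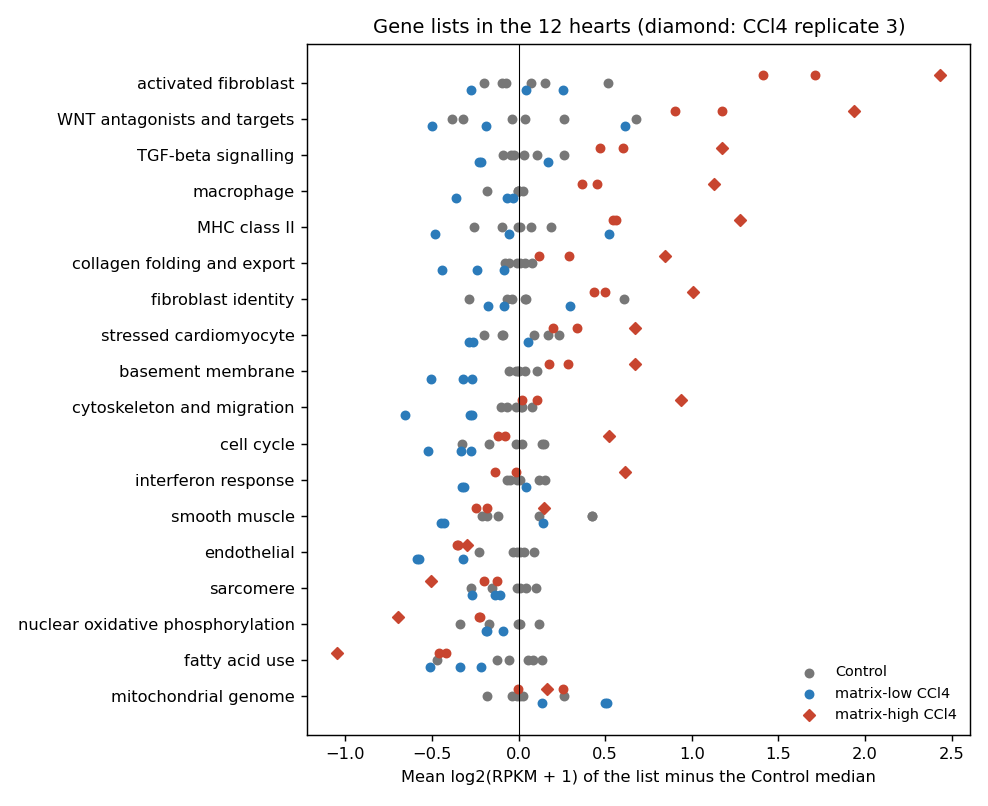
Mean log2(RPKM + 1) of each gene list in each heart minus the Control median of that list, with Control hearts in grey, matrix-low hearts in blue and matrix-high hearts in red; the diamond is CCl4 replicate 3. The red points clear the other hearts for activated fibroblasts, TGF-beta signalling, macrophages and basement membrane, and lie left of 0 for nuclear oxidative phosphorylation and fatty acid use, where replicates 5 and 6 stay among the other hearts.

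Of 23 genes of the TGF-beta system, 12 were apart with the matrix-high hearts higher, against 34.8% of all genes, none was apart and lower, and 11 overlapped. The median difference was 0.52 (0.32 after median-of-ratios scaling, with 11 apart against 12.7% of all genes), and 1 gene passed the filter through the matrix-high hearts alone. Among ligands, Tgfb3 stood out at 20.005, 10.2 and 12.7 RPKM against 3.54, 3.39 and 4.61 RPKM, with Control hearts at 3.30 to 6.75 RPKM. Tgfb2 was at 3.42, 1.77 and 2.02 RPKM against 0.958, 1.06 and 1.29 RPKM. Tgfb1, the form most often studied in fibrosis, was apart by less: 4.85, 3.03 and 3.23 RPKM against 2.67, 2.04 and 2.24 RPKM, and matrix-high replicates 5 and 6 were inside the Control range of 2.69 to 3.69 RPKM. The difference of set medians was thus 1.60 for Tgfb3, 0.55 for Tgfb2 and 0.39 for Tgfb1, and 1.26, 0.32 and 0.15 after median-of-ratios scaling.

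Among latent TGF-beta binding proteins, Ltbp2 was at 25.9, 9.27 and 11.3 RPKM in matrix-high and 0.271, 0.819 and 1.03 RPKM in matrix-low hearts. The ratio of set medians was 13.8. Despite the family name, Ltbp2 binds fibrillin rather than the cytokine itself. Ltbp3, which carries latent TGF-beta, was at 28.8, 14.3 and 17.4 RPKM against 5.53, 6.91 and 11.3 RPKM. The receptor genes Tgfbr1 and Tgfbr2 were apart too, Tgfbr2 at 7.39, 4.21 and 5.11 RPKM against 2.09, 2.05 and 3.76 RPKM. Smad7, the feedback inhibitor of the pathway and a target of it, overlapped between the sets, at 2.50, 1.60 and 1.54 RPKM against 1.66, 0.780 and 1.48 RPKM, and all 3 matrix-low hearts and matrix-high replicates 5 and 6 were below every Control heart. Ltbp3, Tgfb1, Tgfb2, the receptors and Smad7 were picked after their values were seen.

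Secreted WNT antagonists and WNT targets had 6 of 8 measured genes apart, none lower, against 34.8% of all genes. Of the 6, 1 passed the filter through the matrix-high hearts alone. The median difference was 1.44 (1.29 after median-of-ratios scaling). Beside Sfrp2, the related antagonist gene Sfrp1 was at 25.7, 11.3 and 10.1 RPKM against 2.94, 2.61 and 5.61 RPKM. Frzb, another soluble frizzled-like antagonist, was at 6.54, 1.68 and 2.29 RPKM against 0.325, 0.397 and 0.780 RPKM, and Wisp2, a matricellular CCN family gene, at 35.6, 10.7 and 13.2 RPKM against 0.880, 2.54 and 3.08 RPKM. For Sfrp1, Frzb and Wisp2 the 3 matrix-high hearts exceeded every Control heart. Among the 12 genes with the largest differences outside the matrix lists, which include Sfrp2, Cthrc1, Ltbp2, Aspn and Wisp2 because those lists do not hold them although their products lie in or near the matrix, were also Fstl1, a follistatin-like glycoprotein, at 186, 73.1 and 98.4 RPKM against 16.2, 18.2 and 32.1 RPKM, and Ptn, the heparin-binding growth factor pleiotrophin, at 38.4, 23.5 and 32.2 RPKM against 3.18, 7.33 and 7.73 RPKM. The acute phase protease inhibitor gene Serpina3n was at 27.4, 7.21 and 7.33 RPKM against 0.434, 0.464 and 2.93 RPKM, and Control hearts reached 2.61 RPKM. Angptl7 and Fibin, a pair of secreted protein genes, were apart in the same direction, though Angptl7 in matrix-high replicate 5, at 43.3 RPKM, was below the highest Control heart, at 50.9 RPKM.

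Among the 12 genes was also a microRNA gene, Mir214, which lies with Mir199a-2 inside the noncoding gene Dnm3os, which itself lies within Dnm3 on the opposite strand (GRCm38, Mir214 at chr1:162223368-162223477, plus strand). The mature microRNAs of the locus are printed because they are the products a reader would look for; capitals mark the seed, bases 2 to 8, and the sequences are from RefSeq (GRCm38.p6).
mmu-miR-214-3p: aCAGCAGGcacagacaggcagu
mmu-miR-214-5p: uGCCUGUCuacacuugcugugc
mmu-miR-199a-3p: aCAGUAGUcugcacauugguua
mmu-miR-199a-5p: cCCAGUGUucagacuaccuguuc
No 2 of the 4 share a seed. The Mir214 hairpin interval was at 7.93, 4.46 and 6.53 RPKM in the matrix-high hearts and 1.06, 0.687 and 1.004 RPKM in the matrix-low hearts. Over its 110 bases these values come to 42, 25 and 36 reads against 6, 3 and 7 reads. The host Dnm3os was at 2.02, 1.04 and 1.15 RPKM against 0.285, 0.331 and 0.362 RPKM, so it passed the filter through the matrix-high hearts alone. Mir199a-2 overlapped, with matrix-low replicate 4 at 1.86 RPKM above matrix-high replicate 5 at 1.78 RPKM. Libraries of mRNA read the primary transcript, not the mature microRNA, and the strand setting of the counting is not given in the sources used here, so reads of Dnm3 cannot be told apart from those of Dnm3os. The same holds for 4 genes above that overlap an annotated gene on the opposite strand: Sfrp2 with Gm26771, Ltbp2 with D030025P21Rik, Meox1 with Gm11551 and Tgfb3 with Ttll5 and Gm37804.

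The machinery that folds, crosslinks and cuts matrix proteins moved with the sets to different degrees. Of 30 genes of collagen folding and export, 19 were apart, none lower (34.8% and 1.56% of all genes). The median difference was 0.51 (0.29 after median-of-ratios scaling, 0.41 without replicate 3). P4ha3, a prolyl hydroxylase subunit gene, was at 8.40, 1.88 and 2.72 RPKM against 0.124, 0.193 and 0.443 RPKM, the 1 gene of the list that passed the filter through the matrix-high hearts alone. Serpinh1, the collagen chaperone HSP47, was at 88.9, 39.1 and 49.3 RPKM against 38.2, 21.6 and 31.2 RPKM, with Control hearts at 36.7 to 47.1 RPKM, so that 2 matrix-high hearts were above and 2 matrix-low hearts below every Control heart. Its difference of set medians was 0.65, against 2.10 for Col1a1, the chain it helps to fold. Of 18 proteases and inhibitors, 11 were apart with the matrix-high hearts higher, against 34.8% of all genes. Of the 11, 1 passed the filter through that set alone. The median difference of the 18 was 0.62 (0.40 after median-of-ratios scaling, 0.40 without replicate 3). Among the 11 was the gelatinase gene Mmp2 at 46.7, 25.5 and 34.4 RPKM against 7.11, 9.62 and 12.2 RPKM. The metalloproteinase inhibitor gene Timp1 was another, at 26.1, 7.47 and 6.78 RPKM against 1.49, 1.59 and 2.65 RPKM.

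Basement membrane genes had list means with the matrix-high hearts above and the matrix-low hearts below the Control range. Of 14 genes, 12 were apart, none lower, against 34.8% of all genes. After median-of-ratios scaling 7 were apart, none lower, against 12.7%. The median difference was 0.64 (0.34 after median-of-ratios scaling). The mean of the list was 4.43, 3.93 and 4.04 in the matrix-high hearts, 3.43, 3.25 and 3.49 in the matrix-low hearts and 3.70 to 3.86 in the Control hearts. For single genes, all 3 matrix-low hearts were below every Control heart in 3 of 14 as deposited, against 12% of all genes. After median-of-ratios scaling, where the list was not counted in this way, the share of all genes was 1.44%. Col4a1, a chain of the network collagen of basement membranes, was at 118, 62.7 and 70.5 RPKM against 51.8, 27.3 and 35.1 RPKM, and the Control hearts, at 42.8 to 97.4 RPKM, covered matrix-high replicates 5 and 6. Col15a1, a collagen of the basement membrane zone, was at 53.7, 29.2 and 35.4 RPKM against 13.4, 8.003 and 13.1 RPKM, with every Control heart, from 13.7 to 19.8 RPKM, between the sets.

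**Figure D3:**
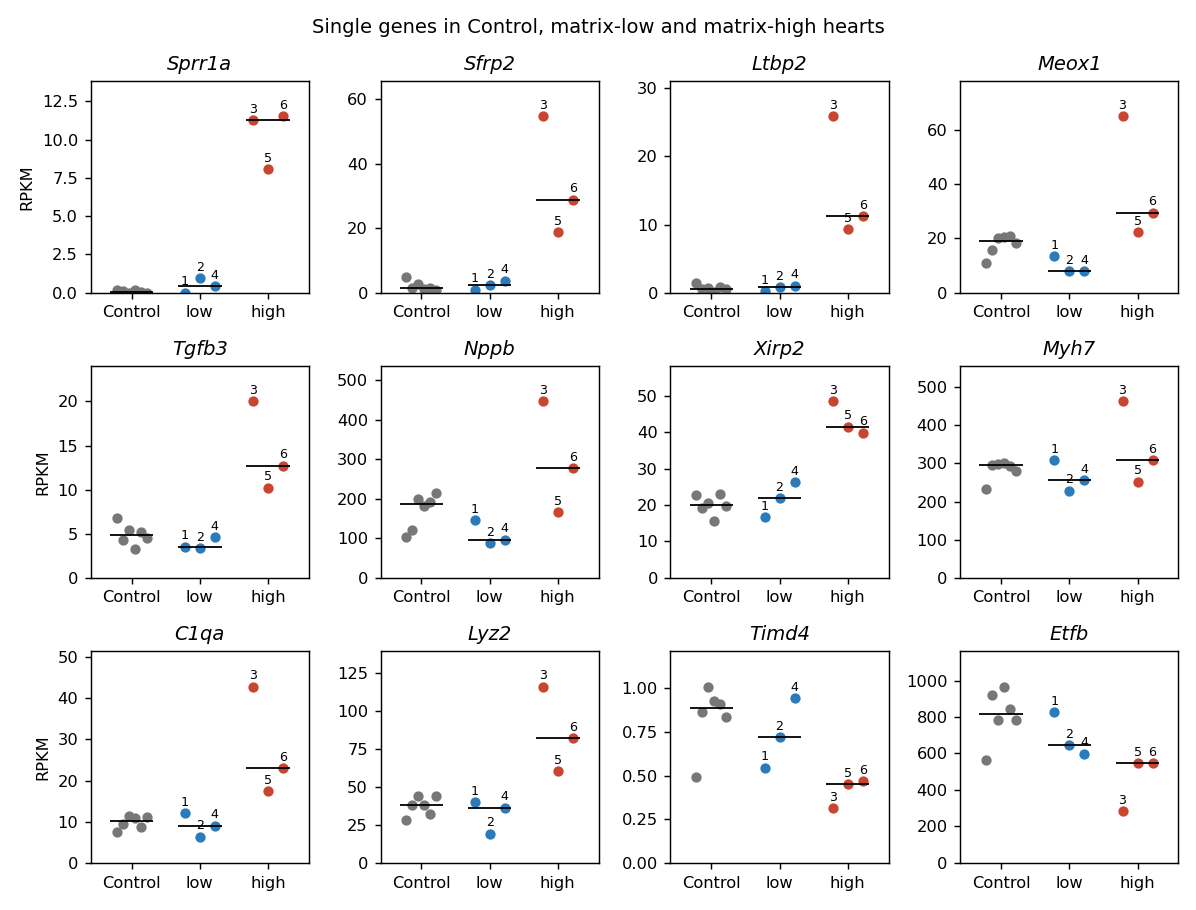
RPKM (vertical axes, linear, from 0) of 12 genes in Control, matrix-low and matrix-high hearts, with 1 point per heart, replicate numbers on the CCl4 hearts and a line at each median. Sprr1a, Sfrp2, Ltbp2 and Tgfb3 clear every Control heart in the matrix-high set, Meox1 and Nppb have a matrix-high median above and a matrix-low median below the Control median, Timd4 and Etfb are lower in the matrix-high set, and Myh7 overlaps.

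Of 21 macrophage markers measured, 16 were apart with the matrix-high hearts higher and 1 with them lower, against 34.8% and 1.56% of all genes. As deposited, 3 of the higher genes and the lower gene had passed the filter through 1 set alone. After median-of-ratios scaling 15 were higher and 2 lower, against 12.7% and 12%. The median difference was 0.63 (0.52 after median-of-ratios scaling, 0.65 without replicate 3). For 14 of the 21, all 3 matrix-high hearts exceeded every Control heart, against 8.49% of all genes. C1qa, a complement chain made mostly by macrophages, was at 42.8, 17.4 and 23.1 RPKM in matrix-high replicates 3, 5 and 6, at 12.1, 6.37 and 9.07 RPKM in matrix-low replicates 1, 2 and 4 and at 7.39 to 11.4 RPKM in Control hearts. Lyz2, the myeloid lysozyme gene, was at 116, 60.6 and 82.0 RPKM against 39.9, 19.3 and 36.4 RPKM. Adgre1, which encodes the F4/80 antigen, was at 3.93, 1.63 and 2.78 RPKM against 0.684, 0.396 and 0.680 RPKM. The lysosomal protease gene Ctss, which antigen-presenting cells express, was at 85.6, 24.7 and 30.3 RPKM against 11.8, 6.68 and 12.5 RPKM.

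Single macrophage genes linked to monocyte origin or to tissue residence are given as values. Ccr2, the chemokine receptor of monocytes that enter the heart from blood, was at 2.44, 0.830 and 0.619 RPKM against 0.438, 0.283 and 0.364 RPKM, and Trem2, a lipid receptor of phagocytes in injured tissue, at 1.75, 0.742 and 0.645 RPKM against 0.134, 0.173 and 0.249 RPKM. Both were above every Control heart in the matrix-high set, and both were under 0.5 RPKM in every matrix-low heart, so that they passed the filter through the matrix-high hearts alone. Timd4, a phosphatidylserine receptor that marks long-lived resident macrophages, was the 1 gene apart in the other direction as deposited, at 0.315, 0.451 and 0.468 RPKM against 0.546, 0.719 and 0.943 RPKM, and it passed the filter through the matrix-low hearts alone. Of other genes linked to resident macrophages, Mrc1, the mannose receptor, was apart and higher, at 6.16, 3.67 and 4.68 RPKM against 2.36, 1.72 and 2.46 RPKM, and above every Control heart in the matrix-high set. Lyve1, Cd163 and F13a1 overlapped: Lyve1 was at 7.31, 4.17 and 4.85 RPKM against 5.54, 3.76 and 7.06 RPKM, Cd163 at 1.23, 1.63 and 2.14 RPKM against 2.61, 1.22 and 2.86 RPKM, and F13a1 at 2.37, 2.61 and 2.44 RPKM against 2.44, 2.23 and 2.75 RPKM. Ccr2, Trem2, Timd4, Mrc1, Lyve1, Cd163, F13a1 and Lyz2 were picked from the list after their values were seen, and the values of Ccr2, Trem2 and Timd4 are near or below 1 RPKM in most hearts.

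Genes of antigen presentation by MHC class II exceeded every Control heart in all 3 matrix-high hearts in 6 of 6 measured, against 8.49% of all genes. They were apart in 3, against 34.8%, and in 1 after median-of-ratios scaling, against 12.7%. The smaller count went with matrix-low replicate 1, which lay above the other matrix-low hearts: Cd74, the invariant chain, was at 84.9, 47.6 and 51.7 RPKM in the matrix-high hearts and at 46.1, 19.98 and 30.2 RPKM in matrix-low replicates 1, 2 and 4, with Control hearts at 23.5 to 37.4 RPKM. The class II chain gene H2-Eb1 was at 59.8, 30.6 and 30.9 RPKM against 31.9, 13.1 and 17.0 RPKM, where replicate 1 exceeded matrix-high replicates 5 and 6. Interferon-induced genes were apart and higher in 2 of 21, against 34.8% of all genes (median difference 0.31, and 0.02 after median-of-ratios scaling). Of 18 lymphocyte markers only 2 passed the filter and neither was apart.

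Heart muscle genes linked to load or stress were apart in 11 of 22 as deposited, none lower, against 34.8% of all genes, with a median difference of 0.48. After median-of-ratios scaling 7 of the 22 were apart, against 12.7% of all genes, and the median was 0.16. As deposited but without replicate 3, the median was 0.34. Of the 12 genes with the largest differences outside the matrix lists, the one with the highest ratio of set medians lay outside that list: Sprr1a, a small proline-rich protein that stressed heart muscle cells and injured neurons make. It was at 11.3, 8.08 and 11.5 RPKM in matrix-high replicates 3, 5 and 6, at 0, 0.938 and 0.430 RPKM in matrix-low replicates 1, 2 and 4, and at 0.165 RPKM or less in every Control heart. The 3 matrix-high values lay close together, with replicate 3 not the highest, and the ratio of set medians was 26.2. Of the list itself, Xirp2, an actin-binding protein of the intercalated disc, was at 48.4, 41.5 and 39.9 RPKM against 16.7, 21.96 and 26.2 RPKM, with Control hearts at 15.5 to 22.9 RPKM, again without replicate 3 standing far from its set.

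The bases upstream of Sprr1a and Xirp2 are printed because both were high in all 3 matrix-high hearts at similar levels and both hold the AP-1 element, the DNA word bound by Fos and Jun proteins that respond to stress. The sequences are from RefSeq (GRCm38.p6), 5′ to 3′ on the gene's strand; Sprr1a covers chr3:92485896-92486131 (minus strand) and Xirp2 covers chr2:67445752-67446001 (plus strand), both ending just before the annotated start. Capitals mark matches to TGANTCA, which reads the same on both strands.
Sprr1a: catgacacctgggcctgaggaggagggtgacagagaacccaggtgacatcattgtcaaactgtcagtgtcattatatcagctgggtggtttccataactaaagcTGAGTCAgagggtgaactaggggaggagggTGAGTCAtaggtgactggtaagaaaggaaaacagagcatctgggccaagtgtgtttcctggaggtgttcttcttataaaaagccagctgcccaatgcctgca
Xirp2: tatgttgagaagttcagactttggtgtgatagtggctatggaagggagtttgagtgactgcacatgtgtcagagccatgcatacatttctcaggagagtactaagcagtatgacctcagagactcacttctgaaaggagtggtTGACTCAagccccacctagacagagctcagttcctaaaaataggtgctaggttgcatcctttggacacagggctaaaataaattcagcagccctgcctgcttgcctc
The Sprr1a window holds 2 matches and the Xirp2 window 1. The word is common: 6.75% of 32851 RefSeq promoters held it in the 250 bases before the start. With 1 promoter per gene the share was 6.87%, and 8 (7.55%) of the 106 among the 186 genes that matched an entry held it. A match is a description of the letters and says nothing of binding. Jun itself was at 14.1, 13.04 and 13.7 RPKM in the matrix-high hearts, 12.2, 10.3 and 10.5 RPKM in the matrix-low hearts and 13.7 to 20.1 RPKM in Control hearts, and its difference of 0.36 turned to -0.06 after median-of-ratios scaling.

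Nppb, a natriuretic peptide gene used as a sign of stretched heart muscle, was at 446, 166 and 278 RPKM in the matrix-high hearts and 145, 88.6 and 96.7 RPKM in the matrix-low hearts. Control hearts were at 104 to 214 RPKM: 2 matrix-high hearts were above and 2 matrix-low hearts below every Control heart, and 1 heart of each set was inside their range. Ankrd1, a stretch-responsive ankyrin repeat gene, was at 2189.5, 1451 and 2167 RPKM against 366, 946 and 1445 RPKM, and matrix-low replicate 4, also the atrium-rich heart of its set, fell just short of matrix-high replicate 5. The calcineurin target Rcan1 was at 17.1, 9.64 and 11.2 RPKM against 5.66, 5.41 and 7.64 RPKM, and Control hearts, at 6.00 to 12.3 RPKM, covered all but 1 matrix-high heart. Other textbook genes of the fetal programme overlapped. Nppa ran from 2689 to 9552 RPKM in the matrix-high hearts and from 802 to 11077 RPKM in the matrix-low hearts, Myh7 from 252 to 462 RPKM against 228 to 309 RPKM, and Acta1 from 24.5 to 52.4 RPKM against 21.3 to 29.97 RPKM.

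Part of the genes of oxidative phosphorylation lay lower in the matrix-high hearts. Of 75 nuclear genes of oxidative phosphorylation, 19 were apart with the matrix-high hearts lower and none with them higher, against 1.56% of all genes lower; after median-of-ratios scaling 48 of 75 were apart and lower, against 12%. The median difference was -0.09 as deposited and -0.46 after median-of-ratios scaling. Without replicate 3 the median difference as deposited was -0.065. By the mean of the list replicate 3 was the lowest: 6.48, 6.95 and 6.96 in matrix-high replicates 3, 5 and 6, 6.995 to 7.09 in the matrix-low hearts and 6.85 to 7.30 in Control hearts, so replicates 5 and 6 stayed within the Control range. Ndufa5, a subunit of respiratory complex I, was at 515, 669 and 632 RPKM against 816, 780 and 700 RPKM, with Control hearts at 625 to 875 RPKM. The 13 protein-coding genes of the mitochondrial genome had lower set medians in the matrix-high hearts in 13 of 13. The share of all genes with a lower set median was not counted. The median difference of the 13 was -0.28, against 0.21 for all genes. None was apart as deposited, against 34.8% of all genes higher and 1.56% lower. After median-of-ratios scaling 2 were apart and lower, against 12%.

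Genes of fatty acid use were apart and lower in 5 of 36, against 1.56% of all genes, and higher in 1, against 34.8%. After median-of-ratios scaling 24 were lower, against 12%, and none higher. The median difference as deposited was -0.08, and -0.03 without replicate 3. By the mean of the list replicate 3 was at 3.73. Replicates 5 and 6, at 4.31 and 4.36, lay within the matrix-low range of 4.26 to 4.56. Etfb, which passes electrons from fatty acid oxidation to the respiratory chain, was at 284, 545 and 545 RPKM in the matrix-high hearts and 826, 648 and 600 RPKM in the matrix-low hearts. Lpl, the lipase that frees fatty acids from blood lipoproteins, was at 80.3, 105 and 117 RPKM against 175, 127 and 133 RPKM. The 1 gene on the other side was Cpt1a, the carnitine acyltransferase form that is minor in adult heart muscle, at 4.26, 4.25 and 4.47 RPKM against 3.93, 2.22 and 2.92 RPKM. Other lists of energy metabolism were divided: positive and negative differences numbered 13 and 12 for the tricarboxylic acid cycle (3 apart and lower), 13 and 9 for glycolysis (3 apart and higher, 2 lower) and 11 and 9 for branched-chain amino acids and ketones (3 apart and lower). Of all genes, 34.8% were apart and higher and 1.56% lower, and their shares by sign alone were not counted. Sarcomere genes showed a like but smaller split than fatty acid genes. As deposited 2 of 18 were lower, against 1.56% of all genes, and 10 after median-of-ratios scaling, against 12%. Tcap, the titin cap, was at 734, 1304 and 1015 RPKM against 1671, 1324 and 1392 RPKM, whereas Myh6 overlapped.

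Some cell types moved little with the sets. No smooth muscle gene of 10 was apart as deposited, against 34.8% of all genes higher and 1.56% lower. After median-of-ratios scaling 3 were apart and lower, against 12% of all genes. The contractile gene Acta2, often used to mark myofibroblasts, overlapped at 54.8, 34.1 and 35.3 RPKM against 38.9, 28.8 and 42.8 RPKM. It was below the Control median of 56.3 RPKM in all 6 CCl4 hearts. Of 19 endothelial genes, 3 were apart with the matrix-high hearts higher and 1 with them lower, against 34.8% and 1.56% of all genes. Their median difference of 0.22 became -0.10 after median-of-ratios scaling. Mesothelial markers, none of 7 apart, and the adipocyte hormone gene Adipoq followed neither set: Upk3b was at 3.01, 0.0556 and 0.847 RPKM in matrix-high replicates 3, 5 and 6 and at 0.331, 0.214 and 5.80 RPKM in matrix-low replicates 1, 2 and 4. Cell cycle genes were apart and higher in 12 of 17, against 34.8% of all genes, and in 6 after median-of-ratios scaling, against 12.7%. Of the 12, 5 passed the filter through the matrix-high hearts alone. Here the matrix-high hearts sat inside the Control range but for replicate 3. Mki67, the proliferation antigen, was at 10.8, 4.13 and 3.43 RPKM against 2.76, 1.21 and 2.56 RPKM, with Control hearts at 2.33 to 7.13 RPKM.

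Genes at least 2-fold lower in the matrix-high hearts were few as deposited and mostly at low level. Without the 2-fold cut, 222 genes (1.56%) were apart and lower, and 1712 (12%) after median-of-ratios scaling, abundant muscle and mitochondrial genes among them. The 3 that were 2-fold apart were Iglj2, an immunoglobulin light chain joining segment, the microRNA gene Mir133a-1 and the small RNA model Gm26109. Iglj2 was at 1.09, 0.516 and 0.525 RPKM against 3.59, 1.99 and 12.5 RPKM, the matrix-low replicate 4 standing out. Of better measured genes, Tnnt1, the slow skeletal troponin T, was at 11.99, 18.0 and 18.2 RPKM against 38.8, 20.6 and 25.8 RPKM, below every Control heart in all 3 matrix-high hearts, as were 3.04% of all genes. Ttll1, a tubulin-modifying enzyme gene, was at 10.02, 19.7 and 16.8 RPKM against 37.3, 26.9 and 22.5 RPKM, also below every Control heart, whose lowest value was 22.8 RPKM. The mitochondrial ribosomal RNA mt-Rnr2 was at 558, 626 and 713 RPKM against 1150, 919 and 752 RPKM. The hepcidin gene Hamp and the kinase gene Sbk3 were lower too, each with matrix-low replicate 4 far above the rest, at 10.04 and 36.8 RPKM, and Hamp passed the filter through the matrix-low hearts alone.

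The 6 Control hearts, which are in neither set, were used to ask which of these genes vary with matrix RNA outside the CCl4 group. A limma fit of each gene on the matrix score, with Benjamini-Hochberg adjustment, called 86 of 14242 genes rising (0.604%) and 11 falling (0.0772%). Of the 186 genes higher in matrix-high hearts, 142 were measured here outside the score: 106 had a positive slope, against 56.1% of all genes, and 13 passed. These calls rested on Control replicate 1, the heart with the highest atrial markers, and on Control replicate 4: without replicate 1, without replicate 4, and with the atrial score as a covariate, no gene rose or fell (limma, unadjusted p under 0.05 for 421, 1398 and 424 rising genes and 131, 544 and 664 falling genes). Without replicates 2, 5 and 6 the rising genes numbered 41, 8 and 23 and the falling genes 2, 0 and 1. The matrix score and the atrial score went together in the Control hearts (Pearson r 0.91, exact permutation p = 0.00139, Spearman rho 1, exact permutation p = 0.00278, n = 6, the only relation tested; r 0.76 without the 2 hearts farthest from the median). In the CCl4 hearts the matrix-high set had atrial scores of 3.84, 3.18 and 2.80, and the matrix-low set 2.91, 3.16 and 5.80.

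Slopes in Control hearts are given by list, in log2 units per unit of matrix score with limma's standard error. Lists were not tested against each other. The matrix and atrial scores ranked the 6 Control hearts alike, so a slope on one cannot be told apart from a slope on the other. Activated fibroblast genes had positive slopes in 11 of 13, and 3 rose: Thbs4 by 2.14 ± 0.30 (adjusted p = 0.0412) and Comp by 2.24 ± 0.29 (adjusted p = 0.033), both members of the score and so not independent of it, and Pamr1, a peptidase-like gene, by 1.09 ± 0.13 (adjusted p = 0.033). Outside the score, Mir214 rose by 1.95 ± 0.19 (adjusted p = 0.0178), on 0 to 17 reads per heart, and the lysosomal protease gene Ctsk, which degrades collagen, by 1.21 ± 0.13 (adjusted p = 0.0234). Sfrp2, with a slope of 1.52 ± 0.26 (adjusted p = 0.059), and Ltbp2, with 0.96 ± 0.16 (adjusted p = 0.0517), did not pass. Complement genes had positive slopes in 12 of 12 and fibroblast markers in 13 of 14. For these lists, as for activated fibroblast genes, the share among all genes was 56.1%.

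Macrophage genes had positive slopes in Control hearts in 4 of 17, MHC class II genes in 1 of 6 and cell cycle genes in 0 of 16, against 56.1% of all genes. None of the genes of these 3 lists passed. The macrophage mean was 1.63 in Control replicate 1 and 1.81 to 1.84 in the other Control hearts, so the lean of that list rests on 1 heart. C1qa had a slope of -0.45 ± 0.20 (adjusted p = 0.344) and Lyz2 of -0.44 ± 0.23 (adjusted p = 0.411). Meox1, at -0.66 ± 0.28 (adjusted p = 0.319), and Nppb, at -0.62 ± 0.41 (adjusted p = 0.531), also had negative slopes, whereas all 4 genes were higher in the matrix-high CCl4 hearts. Whether a slope in Control hearts differs from the difference between CCl4 sets was not tested. Genes of oxidative phosphorylation had positive slopes in 2 of 75. The falling genes included the endothelial receptor gene Kdr, with a slope of -1.12 ± 0.14 (adjusted p = 0.033), and the chemokine gene Cxcl12, with -1.06 ± 0.14 (adjusted p = 0.0353), and neither was apart between the CCl4 sets.

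**Figure D4:**
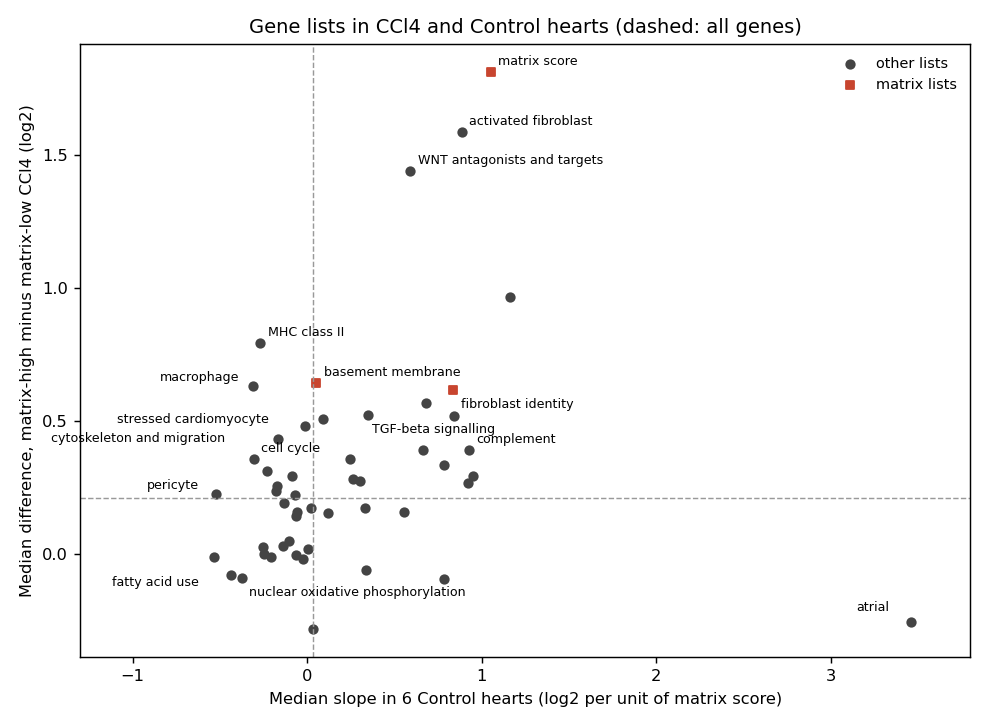
Median slope of each gene list on the matrix score in the 6 Control hearts (horizontal axis, log2 per unit of score) against its median difference between matrix-high and matrix-low CCl4 hearts (vertical axis, log2), with 1 point per list of at least 5 measured genes and dashed lines at the medians of all genes. Activated fibroblast and WNT lists are high on both axes, macrophage and MHC class II lists are high on the vertical axis with negative slopes, and the atrial list has by far the steepest slope and a difference of -0.26.

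Compared as the labels group them, the 6 CCl4 hearts and the 6 Control hearts were not told apart by any gene. By limma, 0 of 14087 genes passed an adjusted p of 0.05, with 226 higher and 1209 lower in CCl4 hearts at an unadjusted p under 0.05; after median-of-ratios scaling 0 passed, with 772 higher and 788 lower. Leaving out 1 heart gave 46 genes without CCl4 replicate 1, 30 without Control replicate 1, 2 without CCl4 replicate 6 and 1 without CCl4 replicate 4, and 0 without any other. Sfrp2 was higher by 1.81 on the log2 scale (adjusted p = 0.398), with only the 3 matrix-high hearts of 6 above the Control range, and Cilp by 2.07 (adjusted p = 0.348). Nppb and Meox1 had a matrix-high median above and a matrix-low median below the Control median. Their mean differences were 0.07 for Nppb (limma, adjusted p = 0.964) and 0.09 for Meox1 (adjusted p = 0.963). Of the 186 genes, 171 were measured in this comparison and 0 passed.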

How the data were processed

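The submitters deposited 1 table of RPKM values for the 12 hearts, 6 Control and 6 CCl4; per the submitters' processing notes, reads were trimmed with Trimmomatic 0.36 and counted with featureCounts of Subread 1.5.1 on GRCm38. Which aligner, gene annotation and strand option were used is not given in the sources used here.

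RPKM were taken as log2(RPKM + 1), and genes at 0.5 RPKM or more in at least 3 of 6 hearts (6 of 12 for CCl4 against Control) were used. On this scale fold changes of low genes are understated. Between matrix-high and matrix-low hearts only values, set medians and overlap were described. Slopes on the matrix score in the Control hearts, and CCl4 against Control, were fitted with limma 3.58.1 (trend, two-sided, Benjamini-Hochberg over all genes, R 4.3.3), after a check on simulated data; permutation tests are exact and two-sided. RPKM hold no counts: relative depth was read from the smallest steps between values, of which 92.6% to 93.9% per library were within 0.05 of a whole step. Nothing in the labels says that the libraries came from separate animals, so p-values measure the spread between these samples. Positions are from GENCODE M21 and sequences from RefSeq, both GRCm38. Mouse sequences of chromosome 18 were not printed.

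The hearts, the 55 gene lists and the tests were chosen with earlier results of these data known. The genes named were the 12 with the largest difference of set medians in each direction (no overlap, no matrix gene or unnamed model, median of 1 RPKM or more in a set), up to 4 members per list, up to 6 matrix genes, the 5 smallest p-values per direction in the Control fit, and fixed sex, atrial and muscle genes. Genes outside that rule were picked after their values were seen: those said to be so in the text and the 7 with both sets outside the Control range, Dnm3os, Mir199a-2, Serpinh1, H2-Eb1, Rcan1, Acta1, Acta2, Upk3b, Pamr1, Alb and Gm26109. Alternatives were a pseudocount of 0.1, other filters, TPM, median-of-ratios and no-mitochondria scaling, other scores, a robust fit, covariates, a replicate block, and leaving out each heart.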

Additional observations from a re-analysis of the deposited data

Results flagged for a closer look

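Single hearts lay far from the other 5 of their group for several lists and genes (Dixon's ratio; chance alone marks about 1 group in 20). List values are mean log2(RPKM + 1).

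Control replicate 1, the Control heart with the most atrial RNA, was high for fibroblast identity (3.90), glucocorticoid targets (3.38) and the clock (2.51), and low for macrophages (1.63), ventricular genes (6.02) and the unfolded protein response (3.94). Among genes it was high for Cthrc1 (0.734 RPKM), Angptl7 (50.9 RPKM), Aspn (18.7 RPKM), Fibin (12.2 RPKM), Wisp2 (3.96 RPKM), Ptn (11.9 RPKM), Frzb (1.15 RPKM), Ace (7.47 RPKM) and Pi16 (21.6 RPKM). It was low for Col4a1 (42.8 RPKM), Myh7 (233 RPKM), Scx (1.181 RPKM) and Timd4 (0.490 RPKM). These RPKM values are the highest or lowest Control values of their genes, and they set that end where a Control range is given above.

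CCl4 replicate 3 was low for ventricular genes (6.03), nuclear oxidative phosphorylation (6.48), fatty acid use (3.73) and Myh6 (8991 RPKM), and high for Ccr2 (2.44 RPKM). CCl4 replicate 4 was high for Sbk3 (36.8 RPKM) and Adipoq (10.7 RPKM). Control replicate 4 was high for lymphocyte markers (0.73). Control replicate 6 was low for adrenergic and muscarinic genes (2.36), for Myh6 (13482 RPKM) and for the small RNA model Gm26109 (0 RPKM).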

How the results depend on the processing

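The 186 genes higher in matrix-high hearts became 458 with a pseudocount of 0.1, 293 with TPM scaling and 103 with median-of-ratios scaling, and 121 to 387 when 1 CCl4 heart was left out. The 3 lower genes became 12 with a pseudocount of 0.1, 0 with a filter of 2 RPKM, 11 with median-of-ratios scaling and 5 with scaling to nuclear RNA alone, and 5 to 13 when 1 heart was left out. The 86 genes rising and 11 falling in Control hearts became 35 and 6 with a pseudocount of 0.1, 8 and 0 with every gene above 0 RPKM in 3 hearts, 31 and 7 with a score of the 4 markers, 16 and 0 with median-of-ratios scaling, and 0 and 0 with the atrial score as a covariate; leaving out 1 Control heart gave 0 to 70 rising and 0 to 15 falling. Between CCl4 and Control hearts, leaving out 1 heart gave 0 to 46 genes.

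The hearts were not treated as paired by replicate number, as no label ties the numbers to a shared litter, batch or day and the correlation of deviations between hearts of the same number ran from -0.474 to 0.232. By Xist and Ddx3y, the sex was the same in both groups for 6 of 6 numbers (2 male, 4 female), and the 2 male numbers, 2 and 5, were those whose hearts correlated best with their own number. With the replicate block 0 genes passed in CCl4 against Control (limma, 193 higher and 867 lower at an unadjusted p under 0.05). No block was used between the CCl4 sets, which share no number.

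Under median-of-ratios scaling the difference between the sets turned negative for Tek (-0.0094), Colec11 (-0.127), Notch3 (-0.105), Gpi1 (-0.111), Rps20 (-0.0937), Rps12 (-0.154), Mrpl24 (-0.210), Mrps10 (-0.170), Psmb1 (-0.219), Jun (-0.0551) and Srxn1 (-0.0858), all positive as deposited. With scaling to nuclear RNA alone it did so for Rps12 (-0.00936), Mrps10 (-0.0203) and Psmb1 (-0.0151). The median difference of all genes went from 0.21 to -0.0017 and 0.12 with these scalings. Of 2617 values of single genes under the alternatives, 2386 moved by less than the spread between hearts, 217 moved by more and 14 changed sign; of 658 values of lists, 583 moved by less and 75 by more. The hairpin genes and those near 1 RPKM rest on few reads.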

Other observations

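Some hormone and growth factor genes outside the groups described so far were apart. Of 8 renin-angiotensin and endothelin genes, 4 were apart and higher and 1 lower, against 34.8% and 1.56% of all genes. Their median difference was 0.28, and 0.03 after median-of-ratios scaling. Of 9 IGF axis genes, 3 were apart and higher and none lower, again against 34.8% and 1.56% of all genes. Their median was 0.57, and 0.19 after that scaling, where 3 were apart and higher, against 12.7%. The members named next are higher ones. Ace, the angiotensin-converting enzyme, was at 13.5, 7.54 and 9.08 RPKM in matrix-high replicates 3, 5 and 6 and at 2.38, 3.12 and 6.03 RPKM in matrix-low replicates 1, 2 and 4, with Control hearts at 2.97 to 7.47 RPKM. The vasoconstrictor gene Edn1 and its receptor gene Ednra were apart as well, Ednra at 4.30, 3.25 and 4.62 RPKM against 2.30, 2.17 and 2.93 RPKM, where every matrix-low heart was below the Control hearts, as for 12% of all genes. Igf1, the growth factor that fibroblasts and macrophages make, was at 3.77, 1.73 and 2.15 RPKM against 0.853, 0.753 and 1.54 RPKM. The type 2 deiodinase gene Dio2, which activates thyroid hormone and was picked after its values were seen, was at 9.76, 2.38 and 3.90 RPKM against 0.409, 0.347 and 0.977 RPKM, and the highest Control heart was at 1.11 RPKM.

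Genes of tendon, valve and cartilage formed a small list with a large difference: 4 of the 6 measured were apart, none lower, against 34.8% of all genes. Of the 4, 1 was Fmod, a member of the matrix score. The median difference was 0.97 (0.85 after median-of-ratios scaling, 0.64 without replicate 3). Sox9, the transcription factor of cartilage and valve cells, was at 4.88, 1.90 and 2.54 RPKM against 0.452, 0.536 and 0.587 RPKM, and all Control hearts were at 0.928 RPKM or less. Scx, the tendon factor scleraxis, was at 3.93, 2.38 and 2.84 RPKM against 2.12, 1.06 and 1.32 RPKM. Tnmd, the tendon gene tenomodulin, was at 2.27, 1.01 and 2.06 RPKM against 0.0863, 0.186 and 0.233 RPKM, and passed the filter of 0.5 RPKM through the matrix-high hearts alone. In Control hearts the slope of Sox9 on the matrix score was 0.04 ± 0.16 (limma, adjusted p = 0.945) and that of Scx was -0.71 ± 0.15 (adjusted p = 0.093). Clock genes were apart and higher in 4 of 17, against 34.8% of all genes, and in 1 after median-of-ratios scaling, against 12.7%. Their median difference was 0.17, against 0.21 for all genes, and -0.02 after that scaling. Of the 4, the repressor Bhlhe41 had the largest difference, at 4.46, 3.21 and 3.50 RPKM against 1.23, 1.57 and 2.41 RPKM. It was above every Control heart in the matrix-high set.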
